A study of Mus musculus with 16 samples.

Results

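Genes of the lysosomal proton pump (V-ATPase), its 2 accessory proteins, the cathepsins and the lysosomal membrane proteins Lamp1 and Lamp2 were followed in mouse quadriceps. They were taken by name: every symbol of the count table that starts with Atp6v or Atp6ap, every Cts symbol with 1 further letter, and Lamp1 and Lamp2. That gave 31 of 13320 genes: 9 subunits of the V1 sector, 6 of the V0 sector, 2 accessory proteins, 12 cathepsins and 2 Lamp genes. All 31 stood above the count filter already present in the deposited table. Quadriceps RNA came from male CD2F1 mice, 8 weeks old when the work on them began, in 4 groups of 4 libraries. C26 cells come from a mouse colon carcinoma, and mice that carry them lose muscle. In splenic C26 mice the cells were put into the spleen, a route that seeds tumours in the liver, and sham mice had the operation with saline in place of cells. In subcutaneous C26 mice the cells were placed under the skin, and what the control mice received is not stated. C26 is 1 cell line, so both tumour groups rest on it. Each tumour group was set against its own tumour-free group, which describes how these transcripts differed between them in a distant muscle. Splenic C26 and sham titles share a prefix, and subcutaneous C26 and control titles share another. What the prefixes stand for is not stated. Between these pairs, the prefix cannot be told apart from the tumour site or the operation. The labels do not call the libraries of a group separate animals, so a p-value speaks to the spread among these libraries only, and that spread may be technical.

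As background, the V-ATPase is a rotary enzyme: its cytosolic V1 sector splits ATP and turns a rotor, and its membrane V0 sector carries protons into the lysosome. The acid it makes lets cathepsins, the proteases of the lysosome, mature and digest proteins delivered by autophagy and endocytosis, while the heavily glycosylated Lamp proteins line the membrane. Wasting muscle is known to use this route beside the ubiquitin-proteasome system, and cathepsin L is a long-known transcript of muscle atrophy. The transcription factor TFEB and its relatives bind CACGTG, the core of an element found in the promoters of many lysosomal genes.

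Promoter sequence was looked at first, because these genes are known to share that element. RefSeq promoters (GRCm38.p6, 250 bases before to 50 bases after the start) were given for 23 of the 31 genes. The RefSeq start can differ from the GENCODE gene coordinates printed further on. The stretches below for Ctsd, Ctsl and Atp6v1a lie inside those gene spans. Promoters of Atp6v0a2, Atp6v1b2, Atp6v1c1, Atp6v1g1, Atp6v1h, Ctsb, Ctse and Ctsh were not used here. CACGTG, which reads the same on both strands, stood in 9 of the 23 promoters (39.1%), against 8.09% of all 27025 genes with a promoter and 11.7% of the 10122 that are in the count table. The longer TCACGTGA, which contains CACGTG, stood in 5 of 23 (21.7%), against 1.12% of all genes and 2.154% of those in the count table. These shares describe the windows and were not tested. The stretches below hold the motif in capitals, 5′ to 3′ along the gene, and show it for 5 genes whose levels the text describes in full, for Ctsf, and for Atp6v0b, which carries it and passed neither tumour test.
Lamp1, chr8:13159085-13159158, plus strand: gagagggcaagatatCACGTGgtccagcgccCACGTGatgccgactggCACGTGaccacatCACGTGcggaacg
Ctsd, chr7:142387908-142387937, minus strand: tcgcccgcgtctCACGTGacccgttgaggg
Ctsl, chr13:64370739-64370768, minus strand: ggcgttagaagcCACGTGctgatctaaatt
Atp6v1a, chr16:44139373-44139402, minus strand: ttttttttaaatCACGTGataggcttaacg
Atp6v0d1, chr8:105566050-105566079, minus strand: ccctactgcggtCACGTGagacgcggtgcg
Ctsf, chr19:4855074-4855103, plus strand: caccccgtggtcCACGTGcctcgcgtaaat
Atp6v0b, chr4:117887335-117887380, minus strand: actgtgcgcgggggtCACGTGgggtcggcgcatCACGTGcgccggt
Lamp1 held 4 copies, 61, 45, 28 and 15 bases before its start, and Atp6v0b, Ctsa and Ctsd held 2 each, 1 of those of Ctsd lying outside the stretch shown. TCACGTGA was found in Atp6v0d1, Atp6v0e, Atp6v1a, Ctsa and Ctsd. Of the 9 genes with CACGTG, 3 passed as higher with the splenic tumour and 7 with the subcutaneous tumour, and 0 passed as lower with either. Of all genes tested, 28.1% and 27.0% passed as higher and 23.9% and 23.1% as lower, so the splenic count is near that background. Of the other 14 members, 4 were higher and 3 lower with the splenic tumour, and 3 were higher and 1 lower with the subcutaneous tumour. A match is no evidence that a factor binds there.

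Libraries held 25.9 to 34.9 M gene counts, and levels are given as CPM, counts scaled to the library total after TMM scaling. The fast-fibre markers of quadriceps were present in every library. Several libraries stood apart from their groups. Transcripts of other tissues were present in splenic C26 replicates 1 (Alb, made by hepatocytes, at 76.2 CPM) and 3 (Ngp, a neutrophil granule gene, at 45.8 CPM), subcutaneous C26 replicate 4 (the red cell gene Slc4a1 at 70.2 CPM) and control replicate 1 (Ngp at 11.8 CPM). Alb was at most 2.25 CPM in sham libraries and 16.5 to 127 CPM in the 4 control libraries. Splenic C26 replicate 1 and subcutaneous C26 replicate 3 stood between the other tumour libraries and the tumour-free ones. Subcutaneous C26 replicate 3 was not intermediate in every respect. Its summed fast-fibre markers were at 3.25e+05 CPM, against 1.24e+05, 1.46e+05 and 1.78e+05 CPM in its group and at most 2.58e+05 CPM in control libraries. Its 10 most abundant genes took 30.1% of counts, the highest share of the 16 libraries. Tumour comparisons with and without these libraries are given with the counts below. In bulk RNA, fewer cells of a type and less RNA per cell cannot be told apart.

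Together the 31 transcripts took 0.353, 0.471, 0.438 and 0.517% of gene counts in splenic C26 libraries, against 0.285, 0.362, 0.321 and 0.326% in sham libraries. They took 0.502, 0.480, 0.316 and 0.459% in subcutaneous C26 libraries, against 0.375, 0.344, 0.296 and 0.264% in control libraries. The highest shares thus belonged to tumour libraries, and splenic C26 replicate 1 and subcutaneous C26 replicate 3 lay within the range of the tumour-free ones.

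With the splenic tumour, 10 of the 31 genes rose and 5 fell (edgeR's quasi-likelihood test, Benjamini-Hochberg adjusted over all 13320 genes, threshold 0.05), and 16 did not pass. As shares these were 32.3% higher and 16.1% lower, beside 28.1% and 23.9% of all genes tested. The share that rose was thus near the background, and the share that fell was below it. The median log2 fold change was 0.28 over the 31 genes and -0.03 over all genes. With the subcutaneous tumour, 12 rose and 2 fell, which is 38.7% and 6.45%, beside 27.0% and 23.1% of all genes. The median was 0.31, and -0.02 over all genes. Upper-quartile scaling moved the median of all genes to -0.24 and -0.26 and that of the 31 genes to 0.06 and 0.07. The counts of higher and lower members were then 8 and 7 with the splenic tumour and 6 and 6 with the subcutaneous one. It ended the splenic calls of Atp6v1d and Ctsz and the subcutaneous calls of Atp6ap2, Atp6v1c1, Atp6v1d, Ctsa, Ctsf and Lamp1. Over all genes that scaling gave 2749 higher and 4384 lower with the splenic tumour, against 3745 and 3186 with TMM, and 2412 and 4509 with the subcutaneous tumour, against 3593 and 3072.

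Without splenic C26 replicates 1 and 3, subcutaneous C26 replicate 4 and control replicate 1, 14 members were higher and 4 lower with the splenic tumour, and 11 and 2 with the subcutaneous tumour. Control replicates 2, 3 and 4 stayed in that fit, with 67.7, 24.6 and 127 CPM of Alb. Without splenic C26 replicate 1 and subcutaneous C26 replicate 3, the counts were 17 and 5, and 15 and 5. Those 2 libraries were picked because their gene levels lay near the tumour-free ones, so the larger counts follow in part from the choice. Splenic C26 replicate 1 was nearest to the sham libraries in 10 of the 10 genes that rose and in 4 of the 5 that fell. Subcutaneous C26 replicate 3 was nearest to the control libraries in 10 of 12 and in 2 of 2. Without splenic C26 replicate 3 and subcutaneous C26 replicate 4, which held the most Slc4a1 and Mki67 of their groups, the counts were 9 and 3, and 10 and 1. That omission ended the splenic calls of Atp6ap2, Atp6v1d, Ctsc, Ctsh and Ctsz and the subcutaneous calls of Atp6ap1, Atp6v1d and Ctsa. A fit of the 8 splenic C26 and sham libraries ended the splenic calls of Atp6ap1, Atp6v0a2, Atp6v1d, Ctsc and Ctsh. In a fit of the 8 subcutaneous C26 and control libraries, Atp6v1b2 and Ctsz also passed as higher, and Ctsc and Ctsh as lower. The count of lower genes rested on single libraries. With the splenic tumour it was 1 without sham replicate 2, 2 without sham replicate 4 or splenic C26 replicate 2 or 4, and 3 without splenic C26 replicate 3. It stayed at 5 without splenic C26 replicate 1. With the subcutaneous tumour it was 4 without splenic C26 replicate 1, and 1 when control replicate 1, control replicate 2, subcutaneous C26 replicate 2 or subcutaneous C26 replicate 4 was left out.

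**Figure D1:**
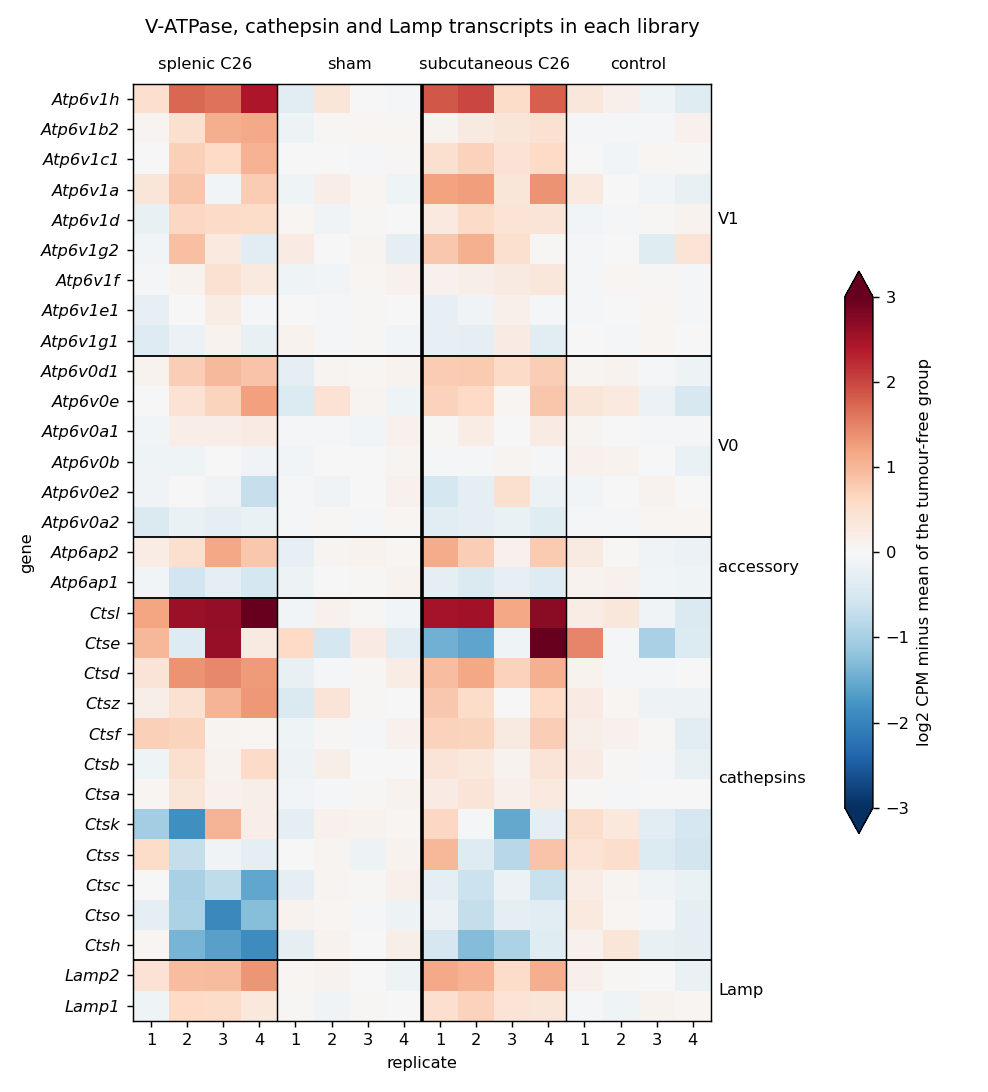
Level of each of the 31 genes (rows, grouped by role) in each of the 16 libraries (columns), as log2 CPM minus the mean of that comparison's tumour-free group, with sham for splenic C26 and control for subcutaneous C26. Colours stop at 3 in both directions. Ctsl and Atp6v1h are red in all 8 tumour libraries, and palest in splenic C26 replicate 1 and subcutaneous C26 replicate 3.

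Both tumour sites shared 10 calls. Atp6ap2, Atp6v0d1, Atp6v1c1, Atp6v1d, Atp6v1h, Ctsd, Ctsl and Lamp2 were higher with each tumour, and Atp6ap1 and Atp6v0a2 were lower with each. Atp6v1b2 and Ctsz passed as higher, and Ctsc, Ctsh and Ctso as lower, with the splenic tumour. Atp6v1a, Ctsa, Ctsf and Lamp1 passed as higher with the subcutaneous tumour. No gene passed in opposite directions, and 12 passed with neither tumour. A call at 1 site does not show that the sites differ: the test of the difference between the tumour effects passed for 0 of the 31 genes, and for 0.0% of all genes. In that test 0 members and 851 of all genes had an unadjusted p under 0.05, and DESeq2 called 0 members, with 84 higher and 2 lower of all genes. In sham against control no member passed in edgeR (0 of 31, and 0 at an unadjusted p under 0.05), beside 0.00751% of all genes, and DESeq2 called 0 members, with 8 higher and 50 lower of all genes.

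**Figure D2:**
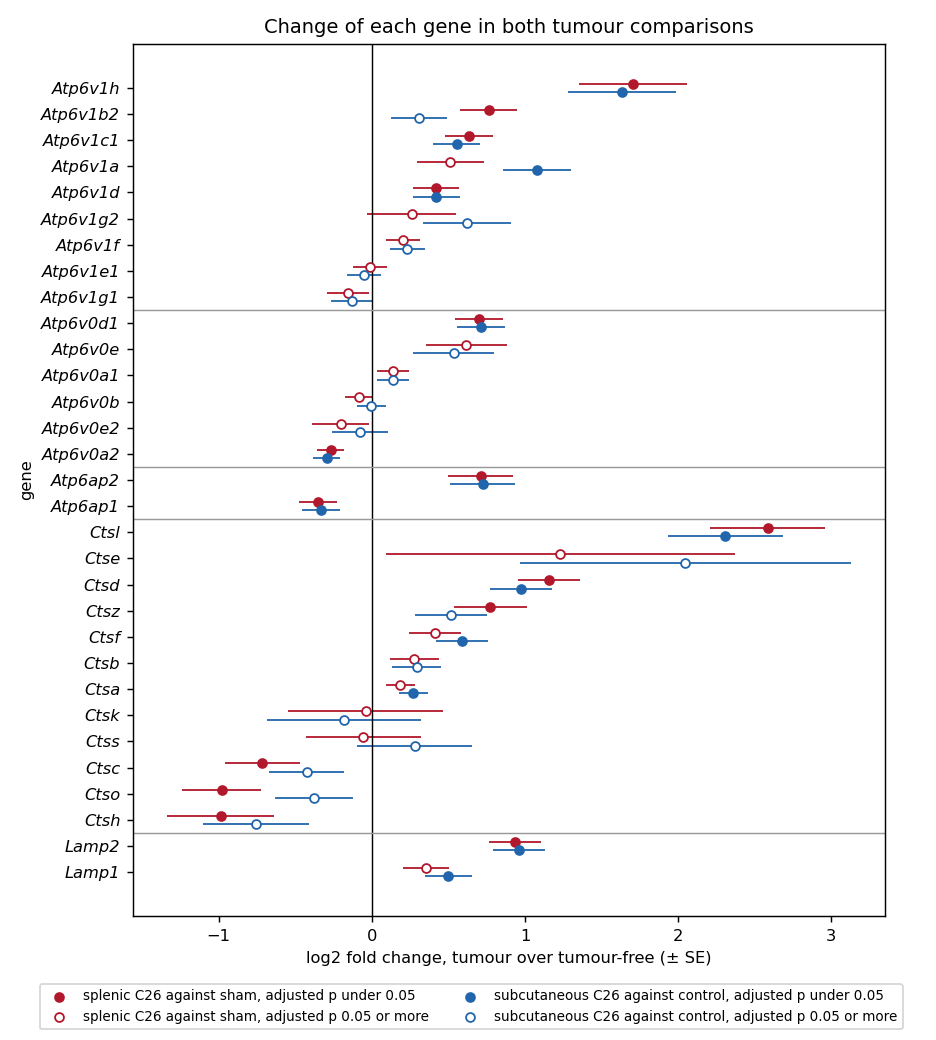
Log2 fold change (tumour over tumour-free) of each gene with its standard error, red for splenic C26 against sham and blue for subcutaneous C26 against control, filled where the edgeR adjusted p was under 0.05. Ctsl (2.58 and 2.31) and Atp6v1h (1.70 and 1.63) lie farthest to the right among filled points, and the 2 accessory genes lie on opposite sides of 0.

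In the V1 sector 4 of 9 genes rose and 0 fell with each tumour, beside 28.1% of all genes that rose with the splenic and 27.0% with the subcutaneous tumour, and log2 fold changes were uneven among subunits that occur in the same complex. Atp6v1h (mm10 chr1:5070018-5162529, plus strand) encodes the regulatory H subunit, which is needed for activity and holds back ATP splitting by a detached V1. It had 22.3, 51.4, 48.7 and 84.8 CPM in splenic C26 libraries, against 12.6, 20.1, 15.8 and 14.99 CPM in sham libraries. It had 55.7, 61.4, 22.3 and 52.7 CPM in subcutaneous C26 libraries, against 19.3, 16.8, 13.9 and 11.8 CPM in control libraries. All 8 tumour libraries lay above all 8 tumour-free libraries, with splenic C26 replicate 1 and subcutaneous C26 replicate 3 the closest to them. The log2 fold change was 1.70 ± 0.35 (SE, adjusted p = 0.00141) with the splenic tumour and 1.63 ± 0.35 (adjusted p = 0.00189) with the subcutaneous tumour in edgeR's test.

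Atp6v1a (chr16:44085402-44139705, minus strand) encodes the catalytic A subunit, where ATP is split. It measured 36.9, 51.2, 27.1 and 49.0 CPM in splenic C26 libraries, against 26.3, 33.1, 29.7 and 26.03 CPM in sham libraries. The corresponding levels were 62.04, 64.2, 34.8 and 69.1 CPM in subcutaneous C26 libraries, against 33.3, 27.1, 25.6 and 23.1 CPM in control libraries. Splenic C26 replicate 3 fell among the sham libraries, whereas the subcutaneous C26 libraries all lay above the control ones. With the splenic tumour the log2 difference was 0.51 ± 0.22 (adjusted p = 0.0599), which did not pass in edgeR's test, and it passed at 0.0189 without splenic C26 replicate 3 and 0.0228 without subcutaneous C26 replicate 3 (adjusted p). With the subcutaneous tumour it rose by 1.08 ± 0.22 (adjusted p = 0.00131). The difference between the tumour effects was -0.57 ± 0.31 (adjusted p = 0.849) and did not pass.

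Atp6v1d (chr12:78840725-78861638, minus strand), the D subunit of the central rotor, had 53.8, 97.3, 94.4 and 92.8 CPM in splenic C26 libraries, against 65.8, 58.9, 65.1 and 63.4 CPM in sham libraries. It had 77.9, 94.4, 84.6 and 82.6 CPM in subcutaneous C26 libraries, against 59.5, 61.7, 64.6 and 67.8 CPM in control libraries. Splenic C26 replicate 1 was below every sham library, and the other 7 tumour libraries were above every tumour-free one. The change was 0.42 ± 0.15 (adjusted p = 0.0306) and 0.42 ± 0.15 (adjusted p = 0.0305). These calls depended on which libraries were kept. The splenic call held in 10 of 16 omissions of 1 library, that of splenic C26 replicate 1 among them, and the subcutaneous call in 11 of 16. With the splenic tumour the edgeR adjusted p was 0.0891, 0.0820 and 0.0783 without splenic C26 replicates 2, 3 and 4. It was 0.0698, 0.0534 and 0.0586 without sham replicates 2, 3 and 4. With the subcutaneous tumour it was 0.119 and 0.0645 without subcutaneous C26 replicates 2 and 4. It was 0.0862, 0.0776 and 0.0546 without control replicates 1, 2 and 3. Atp6v1c1, whose C subunit joins V1 to V0 and is released when they part, rose by 0.63 ± 0.16 (adjusted p = 0.00402) and 0.55 ± 0.16 (adjusted p = 0.00920) in edgeR's test, with means of 39.8 ± 11.1 CPM in splenic C26 and 25.7 ± 0.404 CPM in sham libraries (SD, n = 4 each). Atp6v1b2, the nucleotide-binding B subunit beside A, rose with the splenic tumour by 0.76 ± 0.19 (adjusted p = 0.00377) in edgeR's test. Its value with the subcutaneous tumour was 0.31 ± 0.18 (adjusted p = 0.177). That value passed in the fit of the 8 subcutaneous C26 and control libraries (edgeR adjusted p = 0.0412).

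The remaining V1 genes passed with neither tumour. Atp6v1e1 and Atp6v1g1, the E and G subunits of the outer stalks, had log2 differences of -0.01 ± 0.11 (adjusted p = 0.942) and -0.16 ± 0.14 (adjusted p = 0.347) with the splenic tumour, and of -0.05 ± 0.11 (adjusted p = 0.715) and -0.13 ± 0.14 (adjusted p = 0.444) with the subcutaneous tumour, in edgeR's test. Atp6v1f, the F subunit of the rotor, had 0.20 ± 0.11 (adjusted p = 0.140) and 0.23 ± 0.11 (adjusted p = 0.0988). Without splenic C26 replicate 1, Atp6v1f passed with the splenic tumour (adjusted p = 0.0219), and without subcutaneous C26 replicate 3, Atp6v1g1 passed as lower with the subcutaneous tumour (adjusted p = 0.0422). Atp6v1g2, a G isoform known from neurons, had 1.24 to 2.92 CPM in splenic C26, 1.27 to 1.84 CPM in sham, 1.63 to 3.30 CPM in subcutaneous C26 and 1.24 to 2.101 CPM in control libraries. Its log2 differences were 0.26 ± 0.29 (adjusted p = 0.471) and 0.62 ± 0.29 (adjusted p = 0.0858) in edgeR's test, with an unadjusted p of 0.0483 for the subcutaneous tumour.

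Of the 6 V0 genes taken by name, which need not be the whole sector, 1 rose and 1 fell with each tumour. Of all genes, 28.1% and 27.0% rose and 23.9% and 23.1% fell. Atp6v0d1 (chr8:105524465-105566047, minus strand) encodes the d subunit, which couples the rotor to the proton-carrying ring. Its level was 37.8, 59.4, 69.9 and 64.2 CPM in splenic C26 libraries, against 29.3, 37.8, 37.1 and 38.2 CPM in sham libraries. Its level was 58.4, 59.6, 50.9 and 57.3 CPM in subcutaneous C26 libraries, against 36.4, 36.8, 33.8 and 31.0 CPM in control libraries. The subcutaneous C26 libraries all lay above the control ones, and splenic C26 replicate 1 was just below the highest sham library. Atp6v0d1 rose by 0.70 ± 0.16 (adjusted p = 0.00227) and 0.71 ± 0.16 (adjusted p = 0.00212) on the log2 scale in edgeR's test, and it passed in 28 of 28 and 28 of 28 alternative fits.

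Atp6v0a2 (chr5:124628576-124724455, plus strand), an isoform of the a subunit that forms the proton path and directs the pump to its membrane, was the V0 gene that fell. It had 39.8, 46.4, 44.7 and 46.8 CPM in splenic C26 libraries, against 51.1, 55.3, 52.6 and 55.4 CPM in sham libraries. It had 40.8, 41.5, 44.2 and 39.4 CPM in subcutaneous C26 libraries, against 48.9, 48.7, 53.0 and 53.1 CPM in control libraries. Neither tumour group overlapped its tumour-free group. The fall was small, -0.27 ± 0.09 (adjusted p = 0.0177) and -0.29 ± 0.09 (adjusted p = 0.0118) in edgeR's test, and with the splenic tumour the adjusted p was 0.0564 without sham replicate 2, 0.0791 in the fit of 8 libraries, and 0.125 (log2 difference -0.19) without splenic C26 replicates 1 and 3, subcutaneous C26 replicate 4 and control replicate 1. Its sister Atp6v0a1 did not pass, at 0.14 ± 0.11 (adjusted p = 0.275) and 0.14 ± 0.11 (adjusted p = 0.292).

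Isoform shares cover only genes taken by name, which need not be all isoforms of a subunit. Per kilobase of exon, Atp6v0a2 made up 29.2, 28.2, 27.6 and 27.7% of Atp6v0a1 and Atp6v0a2 together in splenic C26 libraries, against 33.6, 35.4, 34.96 and 32.8% in sham libraries. It made up 28.6, 26.1, 30.5 and 24.8% in subcutaneous C26 libraries, against 31.7, 32.6, 35.4 and 35.2% in control libraries. The share was lower in every tumour library than in every library of its tumour-free group, with a difference of -6.06 and -6.24 percentage points. The exact two-sided permutation p was 0.0286 for each, the smallest that 4 against 4 libraries can give, and 0.0857 after adjustment over the 6 isoform tests made, so neither passed. Atp6v0e made up 26.2 ± 11.1% of the 2 e isoforms in splenic C26 and 16.5 ± 3.999% in sham libraries (SD, n = 4 each, exact permutation p = 0.114). It made up 23.6 ± 7.90% in subcutaneous C26 and 15.8 ± 4.17% in control libraries (exact permutation p = 0.143). Splenic C26 replicate 4 had the highest share, 42.3%, and the splenic difference was 9.75 percentage points with it and 4.39 without it. The subcutaneous difference was 7.74 points, and 11.6 without subcutaneous C26 replicate 3. Atp6v1g2 made up 0.722% to 1.91% of the 2 G isoforms in tumour libraries and 0.580% to 1.04% in tumour-free libraries (exact permutation p = 0.171 for the splenic and 0.0857 for the subcutaneous tumour). Those differences were 0.264 and 0.563 points, 0.0719 without splenic C26 replicate 2 for the splenic tumour, and 0.378 without subcutaneous C26 replicate 2 for the subcutaneous one.

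Atp6v0b, a proteolipid of the proton ring, had log2 differences of -0.09 ± 0.09 (adjusted p = 0.452) with the splenic and -0.0031 ± 0.09 (adjusted p = 0.982) with the subcutaneous tumour in edgeR's test. Atp6v0e, the small e subunit, had 0.62 ± 0.26 (adjusted p = 0.0612) and 0.53 ± 0.26 (adjusted p = 0.104), and passed with the splenic tumour at an adjusted p of 0.0182 without splenic C26 replicate 1, 0.0370 without sham replicate 2 and 0.0498 without subcutaneous C26 replicate 3, and with the subcutaneous tumour at 0.0460 without subcutaneous C26 replicate 3. Its isoform Atp6v0e2 had -0.20 ± 0.18 (adjusted p = 0.366) and -0.08 ± 0.18 (adjusted p = 0.745).

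The 2 accessory proteins moved in opposite directions with both tumours. Atp6ap1 (chrX:74297097-74304721, plus strand), which takes part in assembling the V0 sector, had 124, 88.1, 108 and 90.3 CPM in splenic C26 libraries, against 118, 132, 135 and 139.8 CPM in sham libraries. It had 109.9, 97.8, 111 and 101 CPM in subcutaneous C26 libraries, against 142, 143, 123 and 119.6 CPM in control libraries. The sham range took in splenic C26 replicate 1, and the subcutaneous C26 libraries all lay below the control ones. It fell by 0.35 ± 0.12 (adjusted p = 0.0261) and 0.33 ± 0.12 (adjusted p = 0.0356) on the log2 scale in edgeR's test. The splenic call held in 11 of 16 omissions of 1 library, that of splenic C26 replicate 1 among them. The subcutaneous call held in 12 of 16. With the splenic tumour the edgeR adjusted p was 0.0783 and 0.0847 without splenic C26 replicates 2 and 4. It was 0.0597, 0.0594 and 0.0684 without sham replicates 2, 3 and 4. With the subcutaneous tumour it was 0.0654 and 0.0592 without subcutaneous C26 replicates 2 and 4. It was 0.0720 and 0.0755 without control replicates 1 and 2.

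Atp6ap2, the prorenin receptor, also an assembly factor of the pump, averaged 21.4 ± 6.14 CPM in splenic C26 and 13.1 ± 1.40 CPM in sham libraries (SD, n = 4 each). It averaged 22.3 ± 5.94 CPM in subcutaneous C26 and 13.5 ± 1.87 CPM in control libraries (SD, n = 4 each). It rose by 0.71 ± 0.21 (adjusted p = 0.0118) and 0.72 ± 0.21 (adjusted p = 0.0110) in edgeR's test, and the second adjusted p was 0.0557 without subcutaneous C26 replicate 1.

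Among the 12 cathepsins 3 rose and 3 fell with the splenic tumour, and 4 rose and 0 fell with the subcutaneous tumour, where 28.1% and 27.0% of all genes rose and 23.9% and 23.1% fell. Ctsl (chr13:64359337-64370890, minus strand) encodes cathepsin L, a cysteine endopeptidase. It had 204, 544, 562 and 861 CPM in splenic C26 libraries, against 85.2, 99.4, 92.7 and 84.7 CPM in sham libraries. It had 538, 545, 213 and 624 CPM in subcutaneous C26 libraries, against 110.4, 119, 88.2 and 69.9 CPM in control libraries. Every tumour library lay above every tumour-free one, and splenic C26 replicate 1 and subcutaneous C26 replicate 3 were well below the other tumour libraries. Ctsl had the highest log2 fold change of the members that passed with each tumour, 2.58 ± 0.38 (adjusted p = 0.000175) and 2.31 ± 0.37 (adjusted p = 0.000317) in edgeR's test, and passed in 28 of 28 and 28 of 28 alternative fits.

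Ctsd (chr7:142375911-142388038, minus strand), the aspartic endopeptidase cathepsin D, was by far the most abundant cathepsin transcript. It had 997, 1959, 2066 and 1849 CPM in splenic C26 libraries, against 654, 742, 788 and 894 CPM in sham libraries. It had 1505, 1783, 1279 and 1669.5 CPM in subcutaneous C26 libraries, against 851, 763, 776 and 781 CPM in control libraries. All 8 tumour libraries were above all 8 tumour-free ones. The change was 1.16 ± 0.20 (adjusted p = 0.000482) and 0.98 ± 0.20 (adjusted p = 0.00147) in edgeR's test.

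Ctsb (chr14:63122462-63145923, plus strand), the cysteine protease cathepsin B, passed with neither tumour. Its levels were 386, 582, 452 and 623 CPM in splenic C26 libraries, against 377, 477, 414 and 418 CPM in sham libraries. They were 550.1, 528, 453 and 550.2 CPM in subcutaneous C26 libraries, against 497, 429.6, 413 and 360.0 CPM in control libraries. Tumour and tumour-free libraries overlapped at both sites. The log2 difference was 0.28 ± 0.16 (adjusted p = 0.160) and 0.29 ± 0.16 (adjusted p = 0.143) in edgeR's test, and it passed with the splenic tumour at an adjusted p of 0.0369 without splenic C26 replicate 1.

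**Figure D3:**
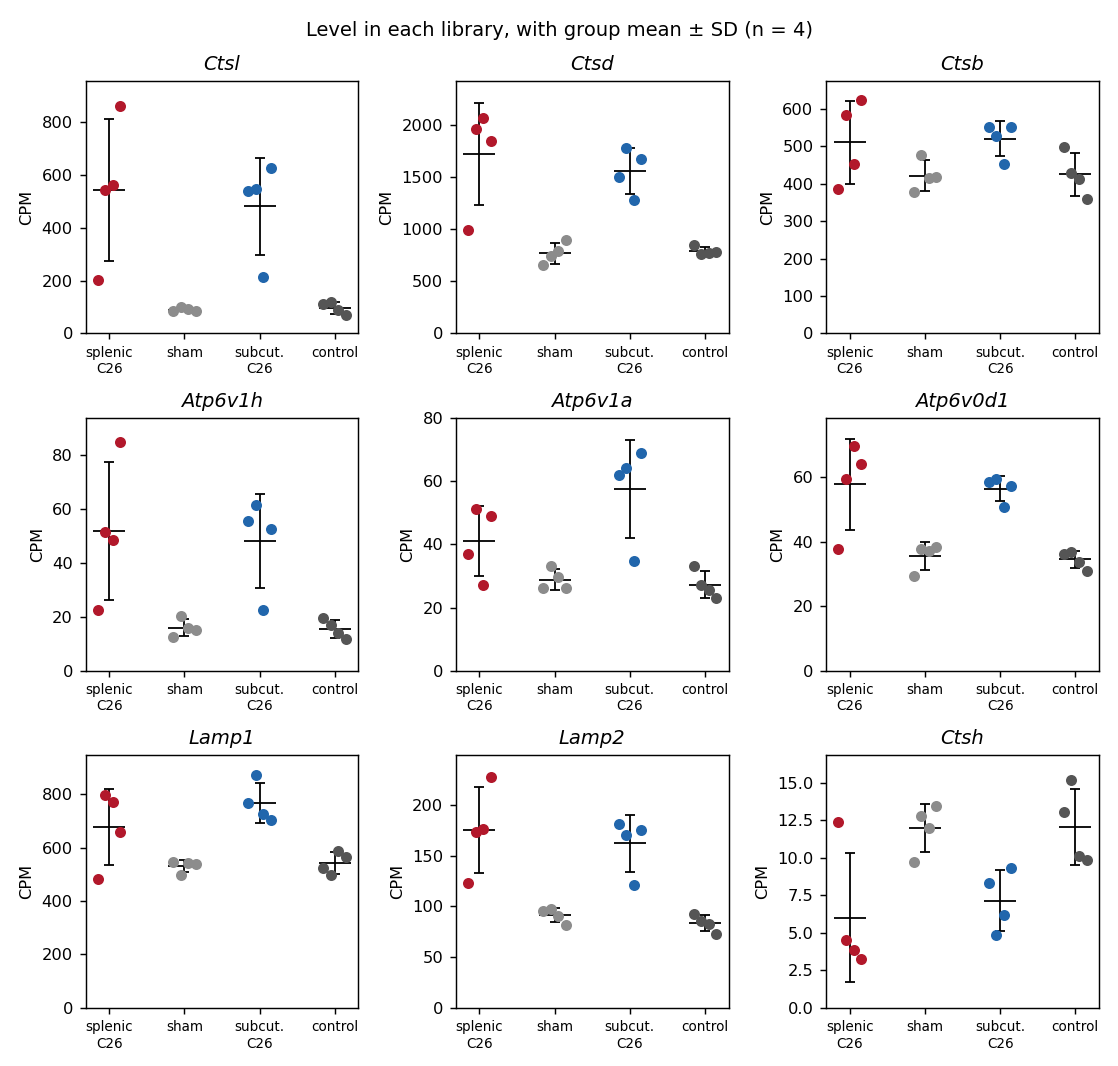
Level in CPM of 9 of the genes in each library (points), with the group mean and SD (bars, n = 4). Ctsl, Ctsd, Atp6v1h and Lamp2 show no overlap between tumour and tumour-free libraries, Ctsb overlaps at both sites, and Ctsh is low in 3 of the 4 splenic C26 libraries.

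The share of Ctsl among the cathepsin transcripts was higher in every tumour library than in every tumour-free one, and that of Ctsb was lower. Per kilobase of exon, Ctsl made up 8.15 ± 2.76% of the 12 cathepsins in splenic C26 and 2.93 ± 0.342% in sham libraries, and 7.99 ± 2.31% in subcutaneous C26 and 3.06 ± 0.605% in control libraries (SD, n = 4 each). Ctsb made up 8.87 ± 1.70% in splenic C26 and 14.6 ± 1.42% in sham libraries, and 9.62 ± 0.819% in subcutaneous C26 and 14.4 ± 1.0005% in control libraries. Ctsd made up 74.2 ± 3.73% in splenic C26 and 68.2 ± 2.59% in sham libraries, and 73.8 ± 2.75% in subcutaneous C26 and 69.4 ± 2.48% in control libraries. Ctsb ranked above Ctsl in share in both tumour-free groups, and the 2 were close in both tumour groups. Shares within a sum move together by construction, and they were not tested. They also depend on the annotated exon union of each gene, 6489 bases for Ctsl, 6051 for Ctsb and 2351 for Ctsd. Without length scaling, mean Ctsl and Ctsb were 542 and 511 CPM in splenic C26 and 480 and 520 CPM in subcutaneous C26 libraries.

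**Figure D4:**
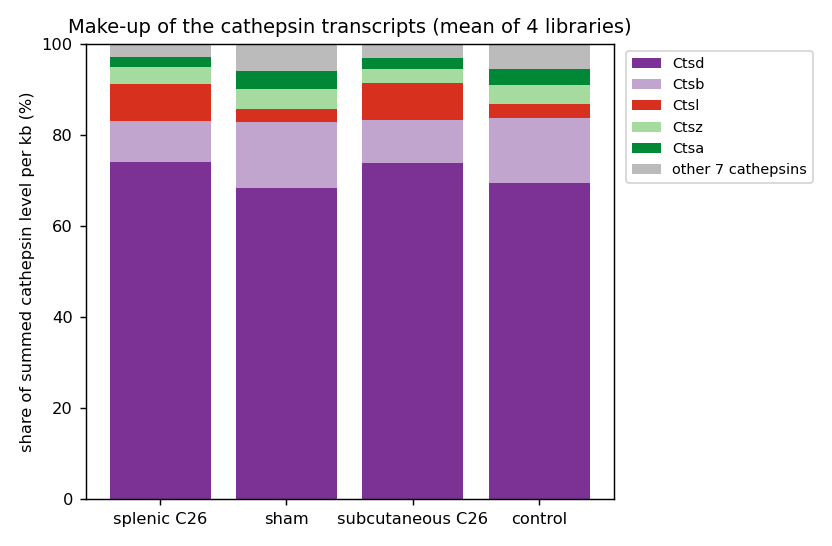
Share of each cathepsin in the summed cathepsin level per kilobase of exon, as the mean of 4 libraries per group (bars from 0 to 100%). Ctsl takes 8.15% in splenic C26 and 2.93% in sham libraries, and Ctsd is the largest block in all 4 groups.

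Ctsa (chr2:164832873-164841032, plus strand), a serine carboxypeptidase that also shields lysosomal neuraminidase and galactosidase, had 89.4, 109.7, 94.0 and 96.6 CPM in splenic C26 libraries, against 80.9, 81.7, 87.8 and 92.1 CPM in sham libraries. It had 97.5, 107, 91.4 and 101 CPM in subcutaneous C26 libraries, against 83.9, 80.7, 80.9 and 83.4 CPM in control libraries. The subcutaneous C26 libraries all lay above the control ones, and the splenic C26 range overlapped sham. Its values were 0.19 ± 0.10 (adjusted p = 0.114) and 0.27 ± 0.10 (adjusted p = 0.0292) in edgeR's test, so it passed with the subcutaneous tumour alone, and in 16 of 28 alternatives. That adjusted p was 0.0534 without splenic C26 replicate 4, 0.0607 without sham replicate 2, 0.0714, 0.152 and 0.0969 without subcutaneous C26 replicates 1, 2 and 4 and 0.0697, 0.0943 and 0.0655 without control replicates 1, 2 and 3. With the splenic tumour it passed at 0.0497 without splenic C26 replicate 1.

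Ctsf, a cysteine cathepsin, rose with the subcutaneous tumour by 0.59 ± 0.17 (adjusted p = 0.0108) in edgeR's test, and was at 0.34 (adjusted p = 0.139) with upper-quartile scaling. Its splenic value was 0.41 ± 0.17 (adjusted p = 0.0522). That splenic value passed at an adjusted p of 0.0278 and 0.0288 without splenic C26 replicates 3 and 4, 0.0377 without subcutaneous C26 replicate 3 and 0.0444 without control replicate 4. Ctsz, the carboxypeptidase cathepsin Z, rose with the splenic tumour by 0.77 ± 0.24 (adjusted p = 0.0139), and the adjusted p was 0.0664 without splenic C26 replicate 4. Its subcutaneous value was 0.52 ± 0.24 (adjusted p = 0.0813) in edgeR's test, and it passed at 0.0288 without subcutaneous C26 replicate 3. It also passed in the fit of the 8 subcutaneous C26 and control libraries (edgeR adjusted p = 0.0341).

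Cathepsins that fell with the splenic tumour were Ctsh, Ctso and Ctsc. Ctsh (chr9:90054152-90076089, plus strand), an aminopeptidase, had 12.4, 4.55, 3.85 and 3.22 CPM in splenic C26 libraries, against 9.74, 12.8, 11.998 and 13.4 CPM in sham libraries. It had 8.31, 4.83, 6.17 and 9.29 CPM in subcutaneous C26 libraries, against 13.1, 15.2, 10.1 and 9.86 CPM in control libraries. Splenic C26 replicate 1 lay within the sham range and the other 3 lay far below it, and all subcutaneous C26 libraries lay below the control ones. It fell by 0.99 ± 0.35 (adjusted p = 0.0274) with the splenic tumour, and its subcutaneous value of -0.76 ± 0.35 (adjusted p = 0.0810) did not pass in edgeR's test. The splenic call of Ctsh held in 11 of 16 omissions of 1 library, that of splenic C26 replicate 1 among them. Its edgeR adjusted p was 0.0736, 0.0794 and 0.0826 without splenic C26 replicates 2, 3 and 4. It was 0.0570 and 0.0599 without sham replicates 2 and 4. The subcutaneous adjusted p was 0.00598 without splenic C26 replicate 1. In the fits of 8 libraries the adjusted p was 0.0713 with the splenic and 0.0214 with the subcutaneous tumour.

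Ctso (chr3:81932601-81956725, plus strand), cathepsin O, had 9.83, 6.10, 3.10 and 4.89 CPM in splenic C26 libraries, against 12.8, 12.4, 11.6 and 10.6 CPM in sham libraries. It had 9.17, 6.29, 8.57 and 8.33 CPM in subcutaneous C26 libraries, against 12.8, 10.7, 9.92 and 8.50 CPM in control libraries. The splenic C26 libraries all lay below the sham ones, and the subcutaneous C26 range overlapped control. It fell by 0.98 ± 0.26 (adjusted p = 0.00575) with the splenic tumour, and its subcutaneous value was -0.38 ± 0.25 (adjusted p = 0.226) in edgeR's test. The difference between the tumour effects, -0.60 ± 0.36 (adjusted p = 0.867), did not pass.

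Ctsc (chr7:88278085-88310888, plus strand), dipeptidyl peptidase 1, activates serine proteases of neutrophils, mast cells and killer lymphocytes. It had 43.85, 22.1, 25.7 and 14.8 CPM in splenic C26 libraries, against 35.8, 46.4, 44.8 and 48.4 CPM in sham libraries. It had 32.5, 25.0, 34.7 and 24.4 CPM in subcutaneous C26 libraries, against 45.3, 41.2, 36.4 and 33.7 CPM in control libraries. Among the splenic C26 libraries replicate 1 stood with sham and the other 3 were below it. It fell by 0.72 ± 0.24 (adjusted p = 0.0233) with the splenic tumour, and its subcutaneous value was -0.43 ± 0.24 (adjusted p = 0.156) in edgeR's test. The splenic call of Ctsc held in 11 of 16 omissions of 1 library, that of splenic C26 replicate 1 among them. Its edgeR adjusted p was 0.0640, 0.0513 and 0.0618 without splenic C26 replicates 2, 3 and 4. It was 0.0507 and 0.0553 without sham replicates 2 and 4. The subcutaneous adjusted p was 0.0332 without splenic C26 replicate 1. In the fits of 8 libraries the adjusted p was 0.0703 with the splenic and 0.0383 with the subcutaneous tumour.

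Ctss and Ctsk are known from cells other than muscle fibres. Ctss (chr3:95526786-95556403, plus strand), a cathepsin of antigen-presenting cells, had 14.97, 6.21, 9.45 and 8.46 CPM in splenic C26 libraries, against 10.1, 10.7, 9.05 and 10.8 CPM in sham libraries. It had 17.6, 6.73, 4.97 and 15.8 CPM in subcutaneous C26 libraries, against 11.8, 12.8, 6.61 and 5.997 CPM in control libraries. Tumour and tumour-free libraries overlapped at both sites. Ctsk (chr3:95499256-95509362, plus strand), the bone-resorbing cathepsin of osteoclasts, had 2.71, 1.55, 11.2 and 6.41 CPM in splenic C26 libraries, against 4.54, 6.05, 5.999 and 5.76 CPM in sham libraries. It had 8.22, 5.17, 1.82 and 4.33 CPM in subcutaneous C26 libraries, against 7.68, 6.66, 4.18 and 3.73 CPM in control libraries. Ctsk overlapped too, and the tumour libraries were spread more widely than the tumour-free ones for both genes. The log2 differences were -0.06 ± 0.38 (adjusted p = 0.910) and 0.28 ± 0.38 (adjusted p = 0.551) for Ctss, and -0.04 ± 0.50 (adjusted p = 0.950) and -0.18 ± 0.50 (adjusted p = 0.778) for Ctsk, in edgeR's test.

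Ctse, an aspartic protease known from the stomach, red cells and some immune cells, had 1.02, 0.397, 3.15 and 0.621 CPM in splenic C26 libraries, against 0.786, 0.356, 0.616 and 0.412 CPM in sham libraries. It had 0.318, 0.286, 0.787 and 16.6 CPM in subcutaneous C26 libraries, against 2.36, 0.8289, 0.436 and 0.644 CPM in control libraries. Subcutaneous C26 replicate 4 alone stood out, and the same library had 70.2 CPM of the red cell gene Slc4a1 and 52.3 CPM of the proliferation gene Mki67. The other subcutaneous C26 libraries had at most 2.45 and 2.07 CPM of them. Splenic C26 replicate 3, second in Ctse, had 17.4 and 7.80 CPM, the most of its group. Ctse did not pass, at 1.23 ± 1.14 (adjusted p = 0.377) and 2.05 ± 1.08 (adjusted p = 0.126) in edgeR's test. These values rested on 1 library each. The subcutaneous value was -1.28 (adjusted p = 0.167) without subcutaneous C26 replicate 4, the opposite direction, and the splenic value was 0.34 (adjusted p = 0.837) without splenic C26 replicate 3.

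Markers of other cells were read beside these cathepsins, and their part in the results was not tested. Marker counts stand beside 28.1% and 27.0% of all genes that rose with the splenic and subcutaneous tumour, and 23.9% and 23.1% that fell. Of 15 macrophage markers, all of them detected, 3 rose and 2 fell with the splenic tumour, and 4 rose and 0 fell with the subcutaneous one. Their summed level was 199 to 422 CPM in splenic C26 and 258 to 345 CPM in sham libraries, and 176 to 484 CPM in subcutaneous C26 and 159.5 to 337 CPM in control libraries. Csf1r, the receptor that keeps macrophages alive, had 39.1, 12.6, 9.45 and 10.3 CPM in splenic C26 libraries, against 34.6, 40.4, 32.7 and 42.7 CPM in sham libraries. Splenic C26 replicate 1, the library within the sham range for Ctsh, Ctsc and Atp6ap1, was thus also within it for Csf1r. Its sum of the 15 macrophage markers, 422 CPM, was the highest of its group and above every sham library. Cd68, a lysosomal protein of macrophages, had 9.51, 7.58, 53.9 and 75.5 CPM in splenic C26 libraries, against 7.04, 7.35, 6.27 and 9.46 CPM in sham libraries, and was high in replicates 3 and 4 alone.

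Of 10 markers of fibro-adipogenic progenitors, 0 rose and 6 fell with the splenic tumour, and 1 rose and 5 fell with the subcutaneous one. Their sum was 3041, 981, 973 and 1148 CPM in splenic C26 libraries, against 2757, 3606, 3124 and 3237 CPM in sham libraries, so replicate 1 again stood with sham. It was 977 to 1879 CPM in subcutaneous C26 and 2074 to 4084 CPM in control libraries. Of 11 neutrophil markers 10 rose with the splenic tumour and 0 with the subcutaneous one. In the test of the difference between the tumour effects 0 of them passed. Their sums were 6.86, 5.53, 189 and 20.1 CPM in splenic C26 libraries, and 1.57 to 2.19 CPM in sham libraries. Subcutaneous C26 libraries had sums of 32.0, 27.6, 4.14 and 9.78 CPM, and control libraries 50.2, 3.43, 1.42 and 1.93 CPM. In all sham libraries 3 of the 11 were at 0.

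Lamp2 (chrX:38401357-38456454, minus strand) takes part in the fusion of autophagosomes with lysosomes, and its loss in humans causes a vacuolar myopathy, Danon disease. It had 123, 174, 176 and 227 CPM in splenic C26 libraries, against 95.6, 97.6, 90.8 and 81.6 CPM in sham libraries. It had 181, 171, 121 and 175 CPM in subcutaneous C26 libraries, against 92.0, 85.3, 82.7 and 72.7 CPM in control libraries. All tumour libraries lay above all tumour-free ones. Lamp2 rose by 0.94 ± 0.17 (adjusted p = 0.000605) and 0.96 ± 0.17 (adjusted p = 0.000537) in edgeR's test, and passed in 28 of 28 and 28 of 28 alternatives.

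Lamp1 (chr8:13159161-13175338, plus strand), the more abundant of the 2 membrane proteins' transcripts, had 484, 797, 773 and 658 CPM in splenic C26 libraries, against 546, 497, 543 and 538 CPM in sham libraries. It had 769, 873, 726 and 703 CPM in subcutaneous C26 libraries, against 524, 496, 588 and 566 CPM in control libraries. In splenic C26 replicate 1 it was below every sham library, while the other 3 were above them, and the subcutaneous C26 libraries all lay above the control ones. Its values were 0.35 ± 0.15 (adjusted p = 0.0639) with the splenic tumour, which did not pass in edgeR's test, and 0.50 ± 0.15 (adjusted p = 0.0145) with the subcutaneous one. The splenic adjusted p was 0.00333 without splenic C26 replicate 1, and the subcutaneous one 0.0666 without subcutaneous C26 replicate 2 and 0.0516 without control replicate 2.

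Per kilobase of exon, levels spanned Ctsd at the top and Ctse and Atp6v1g2 at the bottom, over the 8 tumour and over the 8 tumour-free libraries. Ctsd had 697 ± 153 CPM per kilobase in tumour and 332 ± 30.4 in tumour-free libraries (SD, n = 8 each), and Lamp1 had 270.2 ± 43.4 and 201 ± 11.9. The next genes were Ctsb, Ctsl and Atp6v1g1 in tumour libraries, at 85.2 ± 13.0, 78.8 ± 33.1 and 72.6 ± 12.1, whose ranges overlapped. In tumour-free libraries Atp6v1g1 and Ctsb followed, at 80.1 ± 3.98 and 69.9 ± 7.59, and Ctsl stood at place 14 with 14.4 ± 2.41. Ctsl thus stood at place 4 of 31 in tumour libraries and at place 14 in tumour-free ones. Lengths were unions of all annotated exons, such as 6489 bases for Ctsl, 2351 for Ctsd, 9746 for Atp6v1h and 4602 for Atp6v1d. Places and gaps between genes therefore depend on that annotation. From Atp6v0b to Atp6v1d, places 8 to 16 in tumour-free libraries, the means went from 19.96 down to 13.8, and neighbours in that stretch had overlapping ranges, except Ctsa and Atp6v0a1. Transcripts of subunits present once in the complex were not equal: Atp6v1h had 5.12 ± 2.09 and Atp6v1d 18.4 ± 3.10 CPM per kilobase in tumour libraries, and 1.61 ± 0.306 and 13.8 ± 0.674 in tumour-free libraries.

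**Figure D5:**
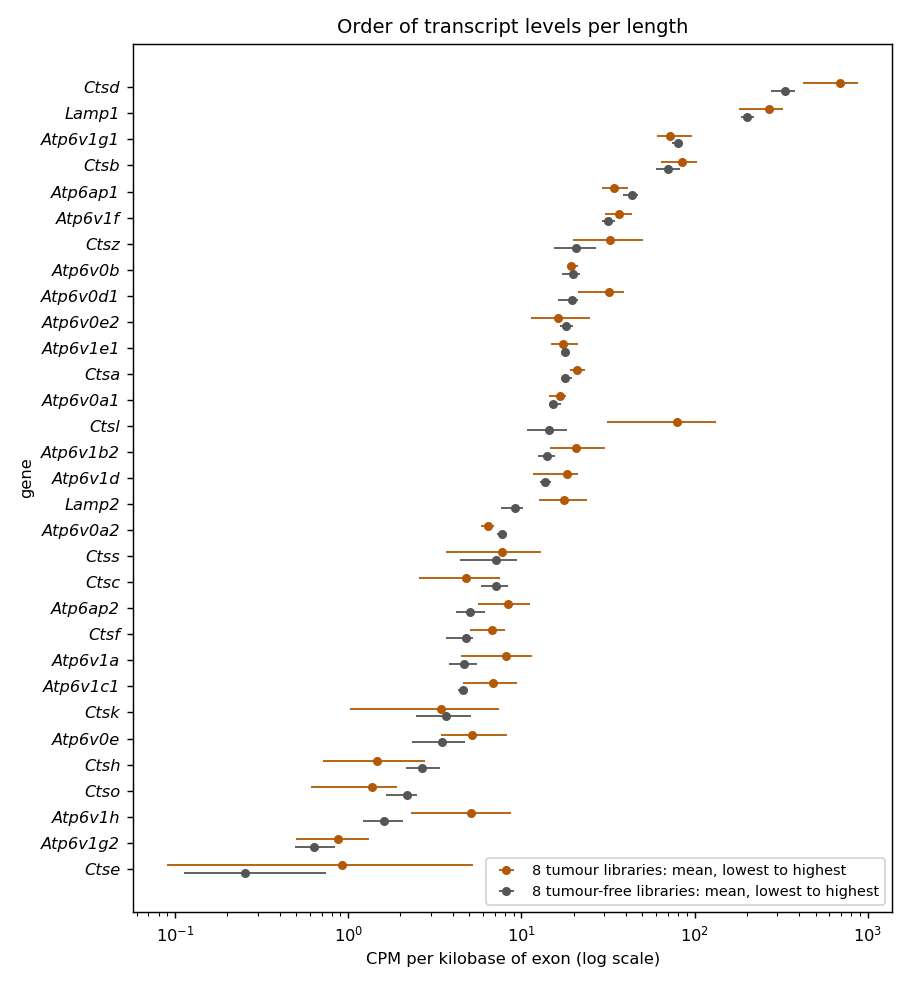
Level of each gene in CPM per kilobase of exon on a log scale, with the mean as a point and the lowest to highest library as a line, orange for the 8 tumour and grey for the 8 tumour-free libraries, ordered by the tumour-free mean. Ctsl moves farthest to the right of its grey point, and the long line of Ctse ends in 1 library far above the rest.

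Other lysosomal genes were counted from lists. Each list count below stands beside 28.1% and 27.0% of all genes that rose with the splenic and subcutaneous tumour, and 23.9% and 23.1% that fell. Of 38 hydrolases outside the cathepsins, 11 rose and 11 fell with the splenic tumour, and 9 rose and 7 fell with the subcutaneous one. Their median log2 fold changes were -0.16 and 0.02. With the splenic tumour the share of hydrolases that rose was thus near that of all genes. Gaa, the acid glucosidase that breaks down glycogen in the lysosome, averaged 1172 ± 508 CPM in splenic C26 and 247 ± 32.2 CPM in sham libraries, and 1066 ± 323 CPM in subcutaneous C26 and 247 ± 13.2 CPM in control libraries (SD, n = 4 each). Gaa rose by 2.25 ± 0.31 (adjusted p = 0.000114) and 2.107 ± 0.31 (adjusted p = 0.000163) in edgeR's test. Idua, which trims glycosaminoglycans, rose by 1.16 ± 0.16 (adjusted p = 0.000105) and 0.72 ± 0.15 (adjusted p = 0.00180), and Hexa, a subunit of hexosaminidase, by 0.72 ± 0.17 (adjusted p = 0.00357) and 1.03 ± 0.17 (adjusted p = 0.000409). Arsb and Sgsh, which remove sulfate from glycosaminoglycans, fell by 2.18 ± 0.44 (adjusted p = 0.00129) and 1.32 ± 0.26 (adjusted p = 0.00105) with the splenic tumour, and by 1.93 ± 0.44 (adjusted p = 0.00275) and 1.41 ± 0.26 (adjusted p = 0.000750) with the subcutaneous one, in edgeR's test.

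Of 22 other lysosomal membrane genes, 8 rose and 4 fell with each tumour, with median changes of 0.02 and 0.13. Npc1, which exports cholesterol from the lysosome, averaged 425 ± 109.5 CPM in splenic C26 and 67.6 ± 11.3 CPM in sham libraries, and 523 ± 227 CPM in subcutaneous C26 and 73.0 ± 8.52 CPM in control libraries (SD, n = 4 each). It rose by 2.65 ± 0.32 (adjusted p = 5.4e-05) and 2.84 ± 0.32 (adjusted p = 3.7e-05) in edgeR's test, and Sidt2, a membrane protein linked to nucleic acid uptake, rose by 1.53 ± 0.19 (adjusted p = 6.0e-05) and 1.42 ± 0.19 (adjusted p = 9.5e-05). Ostm1, the partner of the chloride-proton exchanger Clcn7, fell by 0.86 ± 0.18 (adjusted p = 0.00143) and 0.90 ± 0.18 (adjusted p = 0.00112), and Laptm4a fell by 0.61 ± 0.15 (adjusted p = 0.00337) and 0.56 ± 0.15 (adjusted p = 0.00586).

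Of 16 genes of sorting to the lysosome, 6 rose and 1 fell with the splenic tumour, and 7 rose and 1 fell with the subcutaneous one. Vps16, a core subunit of the tethering complexes HOPS and CORVET, rose by 1.02 ± 0.15 (adjusted p = 0.000200) and 0.84 ± 0.15 (adjusted p = 0.000662) in edgeR's test. From the same complexes, Vps11 rose by 0.53 ± 0.09 (adjusted p = 0.000402) and 0.36 ± 0.09 (adjusted p = 0.00497), and Vps33a by 0.67 ± 0.13 (adjusted p = 0.000856) and 0.68 ± 0.13 (adjusted p = 0.000829). The adaptor Gga2 fell by 0.63 ± 0.12 (adjusted p = 0.000795) and 0.54 ± 0.12 (adjusted p = 0.00234).

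Of 17 genes of TFEB, its relatives and the mTORC1 machinery on the lysosome, 8 rose and 4 fell with the splenic tumour, and 6 rose and 4 fell with the subcutaneous one. Mtor, the kinase itself, rose by 1.4995 ± 0.23 (adjusted p = 0.000242) and 1.04 ± 0.23 (adjusted p = 0.00224) in edgeR's test. Flcn, which acts on the Rag GTPases, rose by 0.77 ± 0.15 (adjusted p = 0.00105) and 1.09 ± 0.15 (adjusted p = 0.000140), and Rragc, a Rag GTPase, rose by 0.71 ± 0.21 (adjusted p = 0.0104) and 0.95 ± 0.21 (adjusted p = 0.00199). Fnip1 fell by 0.43 ± 0.14 (adjusted p = 0.0169) and 0.40 ± 0.14 (adjusted p = 0.0262), and Lamtor4 by 0.51 ± 0.18 (adjusted p = 0.0304) and 0.66 ± 0.18 (adjusted p = 0.00889). Lamtor2 fell with the splenic tumour by 0.42 ± 0.14 (adjusted p = 0.0205) and had -0.21 ± 0.14 (adjusted p = 0.222) with the subcutaneous one, and Rptor fell with the subcutaneous tumour by 0.41 ± 0.12 (adjusted p = 0.0111) and had -0.27 ± 0.12 (adjusted p = 0.0663) with the splenic one. The factors that bind the motif, named here outside the rule for other genes, had values of 0.34 ± 0.15 (adjusted p = 0.0742) and 0.62 ± 0.15 (adjusted p = 0.00445) for Tfeb, 0.04 ± 0.12 (adjusted p = 0.816) and -0.08 ± 0.12 (adjusted p = 0.593) for Tfe3, and 0.86 ± 0.23 (adjusted p = 0.00588) and 0.93 ± 0.23 (adjusted p = 0.00385) for Mitf in edgeR's test.

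Of 14 partners of the V-ATPase, among them assembly factors, 1 rose and 4 fell with the splenic tumour, and 3 rose and 2 fell with the subcutaneous one. Dmxl2, which helps V1 join V0, rose by 1.36 ± 0.40 (adjusted p = 0.0111) and 1.53 ± 0.40 (adjusted p = 0.00610) in edgeR's test. Vma21, a chaperone of V0 assembly, fell with the splenic tumour by 0.49 ± 0.11 (adjusted p = 0.00211) and had -0.19 ± 0.11 (adjusted p = 0.149) with the subcutaneous one, and Oxr1, of the family that parts V1 from V0, fell by 0.65 ± 0.19 (adjusted p = 0.0108) and 0.54 ± 0.19 (adjusted p = 0.0266). Ccdc115, an assembly factor, rose with the subcutaneous tumour by 0.48 ± 0.15 (adjusted p = 0.0175) and had 0.11 ± 0.15 (adjusted p = 0.561) with the splenic one. Rilp, which binds the pump and Rab7, fell by 0.36 ± 0.14 (adjusted p = 0.0483) and 0.55 ± 0.14 (adjusted p = 0.00607).

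Of 4 measured inhibitors of cathepsins and related proteases, 3 rose and 1 fell with the splenic tumour, and 2 rose and 0 fell with the subcutaneous one. Cst6, a cystatin, rose by 0.87 ± 0.17 (adjusted p = 0.000800) and 0.86 ± 0.17 (adjusted p = 0.000924) in edgeR's test. Cst3, cystatin C, which blocks cysteine cathepsins outside cells, fell with the splenic tumour by 0.86 ± 0.26 (adjusted p = 0.0128) and had -0.43 ± 0.26 (adjusted p = 0.174) with the subcutaneous one. Serpina3n, a secreted serine protease inhibitor, averaged 540.1 ± 527 CPM in splenic C26 and 7.45 ± 2.75 CPM in sham libraries, and 404 ± 247 CPM in subcutaneous C26 and 13.5 ± 7.76 CPM in control libraries (SD, n = 4 each). It rose by 6.18 ± 0.84 (adjusted p = 0.000125) and 4.91 ± 0.79 (adjusted p = 0.000325), and reads shared with its near-identical family members make that value uncertain.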

How the data were processed

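Quadriceps RNA was sequenced as 75-base paired ends, and the labels' protocols place RNA isolation and sequencing of every sample at 1 time. The deposited table of raw read counts per gene symbol was made by the authors with STAR and featureCounts, per the labels, and the submitters' processing notes name FastQC, STAR, edgeR and the build mm10. Which versions, annotation and strand setting were used is not given in the sources used here. Reads of overlapping or antisense genes may therefore be mixed. A second deposited table held log2 values, which served as an alternative unit. Each of the 13320 genes was above 0.5 CPM in 4 or more libraries as deposited. The table's 4013 blank lines held no counts and were left out.

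Groups came from the tumour label, and replicate numbers only name libraries. Totals were 25.9 to 34.9 M counts per library. No library repeated another of its group (lowest chi-square over its degrees of freedom, 13.0). The fit was edgeR's quasi-likelihood model (version 4.0.16, R 4.3.3) with TMM scaling, robust estimates and 1 mean per group over 16 libraries, with Benjamini-Hochberg adjustment over all genes and a threshold of 0.05. The steps were tested on simulated data. Lengths per kilobase are exon unions of GENCODE M21 on mm10, which 96.6% of symbols matched. Isoform shares were compared with exact permutation tests.

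Alternatives were RLE and upper-quartile scaling, other filters, DESeq2 1.42.0, limma 3.58.1 (voom, and trend on the deposited log2 values), stricter thresholds, leaving out the 10 top genes, fits of 8 libraries and omission of libraries. Every gene of the table passed the main count filter, so the fit without a filter repeats the main fit. It is included in the numbers of alternatives given per gene. The members and gene lists were chosen with earlier results of these data known. Values in every library are given for Ctsl, Ctsb, Ctsd, Lamp1, Lamp2, Atp6v1a, Atp6v1h, Atp6v0d1, Ctss and Ctsk, and for the members with the 4 highest and the 4 lowest log2 changes of those that passed with a tumour and averaged 1 CPM or more. The rule also named Atp6v0d2, which is not analysed here, and members that passed in the test of the difference or in opposite directions, of which there were 0. Ctse was added after its values were seen. From the lists of other lysosomal genes, V-ATPase partners and inhibitors, the 2 genes with the smallest p in each direction were named. Cell marker lists are given as counts, some with sums. Single markers such as Csf1r and Cd68 were named outside that rule. Lists of hepatocyte, red cell and fast-fibre markers served to judge the libraries: with the splenic tumour 6 of 8, 2 of 3 and 1 of 11 were higher and 0, 0 and 3 lower, and with the subcutaneous tumour 1, 1 and 0 were higher and 7, 0 and 3 lower.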

Additional observations from a re-analysis of the deposited data

Results flagged for a closer look

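In 10 of 124 gene and group combinations tested, 1 library stood apart from the other 3 of its group by Dixon's criterion, which chance gives in about 1 of 20. Some of these are low or high by little: Atp6ap2 at 11.0 CPM in sham replicate 1 (the others 13.5 to 14.01), Atp6v0b at 43.4 CPM in subcutaneous C26 replicate 3 (39.9 to 40.0), and Lamp1 at 497 CPM in sham replicate 2 (538 to 546). Atp6v0d1 at 29.3 CPM and Atp6v1b2 at 66.3 CPM were also low in sham replicate 1, where the others held 37.1 to 38.2 and 75.1 to 76.8 CPM. Atp6v1b2 was at 82.9 CPM in control replicate 4, and at 73.2 to 74.4 CPM in the others.

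The remaining 4 lay farther out. Atp6v1d was at 53.8 CPM in splenic C26 replicate 1, against 92.8 to 97.3 CPM in the other splenic C26 libraries. In the same library Ctsh was at 12.4 CPM, against 3.22 to 4.55 CPM. Atp6v1g1 was at 109.4 CPM in subcutaneous C26 replicate 3, against 72.1 to 77.2 CPM. Ctse was at 16.6 CPM in subcutaneous C26 replicate 4, against 0.286 to 0.787 CPM, beside the red cell and proliferation transcripts of that library. The part of those transcripts in the value was not tested.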

How the results depend on the processing

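Over 1732 values of single genes under alternative fits, 1573 kept their direction and their side of the threshold, 70 lost the call and 55 gained one. Values of the fit without a count filter are among those kept by construction, because that fit repeats the main one. The other 34 changed sign, each without a call before or after. The count of higher members with the splenic tumour (10) was 9 to 15 when 1 library at a time was left out, and 17 without splenic C26 replicate 1 and subcutaneous C26 replicate 3. The count of lower members (5) was 1 to 5 when 1 library was left out, 1 at an adjusted p under 0.01, 3 with at least a 1.5-fold change, 1 in a fit of the 8 libraries of the comparison, and 3 without the 2 libraries rich in red cell and proliferation transcripts. With the subcutaneous tumour the count of higher members (12) was 9 to 14 with 1 library left out, 7 at an adjusted p under 0.01 and 6 with upper-quartile scaling. The count of lower members (2) was 1 to 4 with 1 library left out, 0 at an adjusted p under 0.01, 0 with at least a 1.5-fold change, 6 with upper-quartile scaling, 4 in the fit of 8 libraries, 5 without the 2 intermediate libraries, and 1 without the 2 libraries rich in red cell transcripts. Other counts stayed within 1.5 times of those given, and the counts of 0 in the other 2 tests stayed at 0 in every fit run. The cause was not tested. Removal of the 2 libraries rich in red cell transcripts was chosen after seeing the data. With 4 libraries a group, small changes such as those of Atp6ap1, Atp6v1d and Ctsa sit at the threshold, and Ctse and Ctsk had the largest standard errors. No paired analysis was possible because the replicate numbers only name the libraries.

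The changes of sign were as follows, as log2 differences. With upper-quartile scaling Atp6v0a1 was at -0.077 with the splenic and -0.11 with the subcutaneous tumour, Atp6v1f at -0.018 and -0.0077, and Ctsa at -0.026 with the splenic tumour. Atp6v1e1 with the splenic tumour was at 0.014 with RLE scaling, 0.013 with DESeq2 and 0.058 without the 2 intermediate libraries. Atp6v0b with the subcutaneous tumour was at 0.0028 in limma-voom, 0.0022 in limma-trend and 0.0079 without the 10 top genes. Without splenic C26 replicates 1 and 3, subcutaneous C26 replicate 4 and control replicate 1, Ctse was at -0.079 with the splenic and -0.53 with the subcutaneous tumour, and with the subcutaneous tumour Atp6v0b was at 0.028 and Ctsk at 0.054. Without the 2 intermediate libraries Ctsk was at 0.18 and 0.084. Without the 2 libraries rich in red cell transcripts Ctse was at -1.28 with the subcutaneous tumour. With 1 library left out the splenic values ran from -0.10 to 0.067 for Atp6v1e1, -0.035 to 0.42 for Atp6v1g2, -0.66 to 0.27 for Ctsk and -0.33 to 0.11 for Ctss. The subcutaneous values ran from -0.068 to 0.023 for Atp6v0b, -0.32 to 0.019 for Atp6v0e2, -1.28 to 2.79 for Ctse, -0.56 to 0.085 for Ctsk and -0.034 to 0.52 for Ctss.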
